A study of Mus musculus with 12 samples.

Results

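The Toll-like receptors and Cd14 were examined as a group of 10 genes, Tlr1 to Tlr9 and Cd14, taken by name from 25128 genes and unmatched targets on a mouse expression array. The row identifiers of the array were matched to mouse gene symbols through their transcripts. This gave 1 target of 3 probes for each of 9 members, and Tlr5 was not analysed here. RNA came from 12 plates of untreated mouse cells, with 4 separately grown plates for each of the cell lines AtT20, BV2 and N18 and 1 single-color array per plate. AtT20 is a line from a pituitary corticotroph tumor, BV2 a microglial line kept here under resting conditions, and N18 a neuroblastoma line. All were grown in the same medium with serum, and no receptor ligand was given. Each line is a single continuous line, so the 4 plates are cultures of the same cells, and the p values measure the spread between cultures.

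Toll-like receptors are membrane proteins that recognize parts of microbes. Tlr1, Tlr2, Tlr4 and Tlr6 act at the cell surface, where Tlr2 pairs with Tlr1 or Tlr6 to bind bacterial lipopeptides and Tlr4 responds to lipopolysaccharide. Tlr3, Tlr7, Tlr8 and Tlr9 act in endosomes and recognize RNA or DNA, and Tlr5 recognizes flagellin. Cd14 is a surface protein without a signaling domain of its own that hands lipopolysaccharide to Tlr4. The receptors signal through the adaptors Myd88 and Ticam1 to NF-kappaB and interferon regulatory factors, and microglia are the cells of the brain best known for using them.

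The arrays of the 3 lines differed as a whole. AtT20 arrays were brightest, with medians from 10.85 to 11.50 on the log2 scale, against 9.90 to 10.28 for BV2 and 10.10 to 10.54 for N18, and they had the narrowest spread, with an interquartile range of 0.38 to 0.78 against 1.28 to 1.73 and 1.91 to 2.21. Of 11 microglia and macrophage markers measured, 9 were above the threshold in BV2, 2 in N18 (Itgam and Tyrobp) and 1 on the plates labelled AtT20 (Fcgr3). Their levels lay between 0.30 and 4.70 in BV2, between -0.41 and 1.12 in N18 and between -0.17 and 0.50 for AtT20. Aif1 and Cx3cr1 were below the threshold in BV2. Of 12 neuroblastoma markers 10 were above it in N18, 7 on the plates labelled AtT20 (Nefl at 4.46 among them) and 6 in BV2. Of 8 corticotroph markers only Pitx1 was above it on the plates labelled AtT20, and Pomc was not, so these plates are named by their label. In N18 4 of the 8 were above it, and in BV2 2 were, Pomc and Tbx19. The calls of the corticotroph markers thus did not follow the named cell type. Which plates shared a slide is not given in the sources used here, so slide and cell line cannot be told apart.

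BV2 cells had mRNA for most of the group, with Cd14 and Tlr2 far above the threshold, while Tlr2 was the only member called in N18 cells. A level is given on the log2 scale, as the averaged probes of a gene less the average of 10 seminal proteins on the same plate, which serve as genes that these cells should not express. A gene was called expressed when the mean level over 4 plates exceeded 2 SD of the seminal proteins, a threshold of 0.37 ± 0.11 (SD, n = 4 plates) for AtT20, 0.56 ± 0.15 for BV2 and 0.74 ± 0.10 for N18. In BV2, 7 of the 9 measured members were called (Cd14, Tlr2, Tlr4, Tlr6, Tlr7, Tlr8 and Tlr9), where 53.3% of all genes and targets were. Under stricter settings, given at the end, the members called in BV2 fell to 3 or 4, near or below the share of all. In N18, 1 of 9 was called, against 55.4% of all. On the plates labelled AtT20, 2 of 9 were called, Tlr2 and Tlr7, against 35% of all. Counted plate by plate against its own threshold, 7, 6, 3 and 7 members were above it on BV2 plates 1 to 4, 1 on each N18 plate, and 0, 2, 1 and 1 on plates 1 to 4 labelled AtT20. The thresholds of BV2 plates 1 to 4 differed, at 0.57, 0.39, 0.75 and 0.54. The share of all genes above them was not counted plate by plate, so these counts have no background. In bulk RNA, fewer expressing cells and less RNA per cell cannot be told apart.

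**Figure D1:**
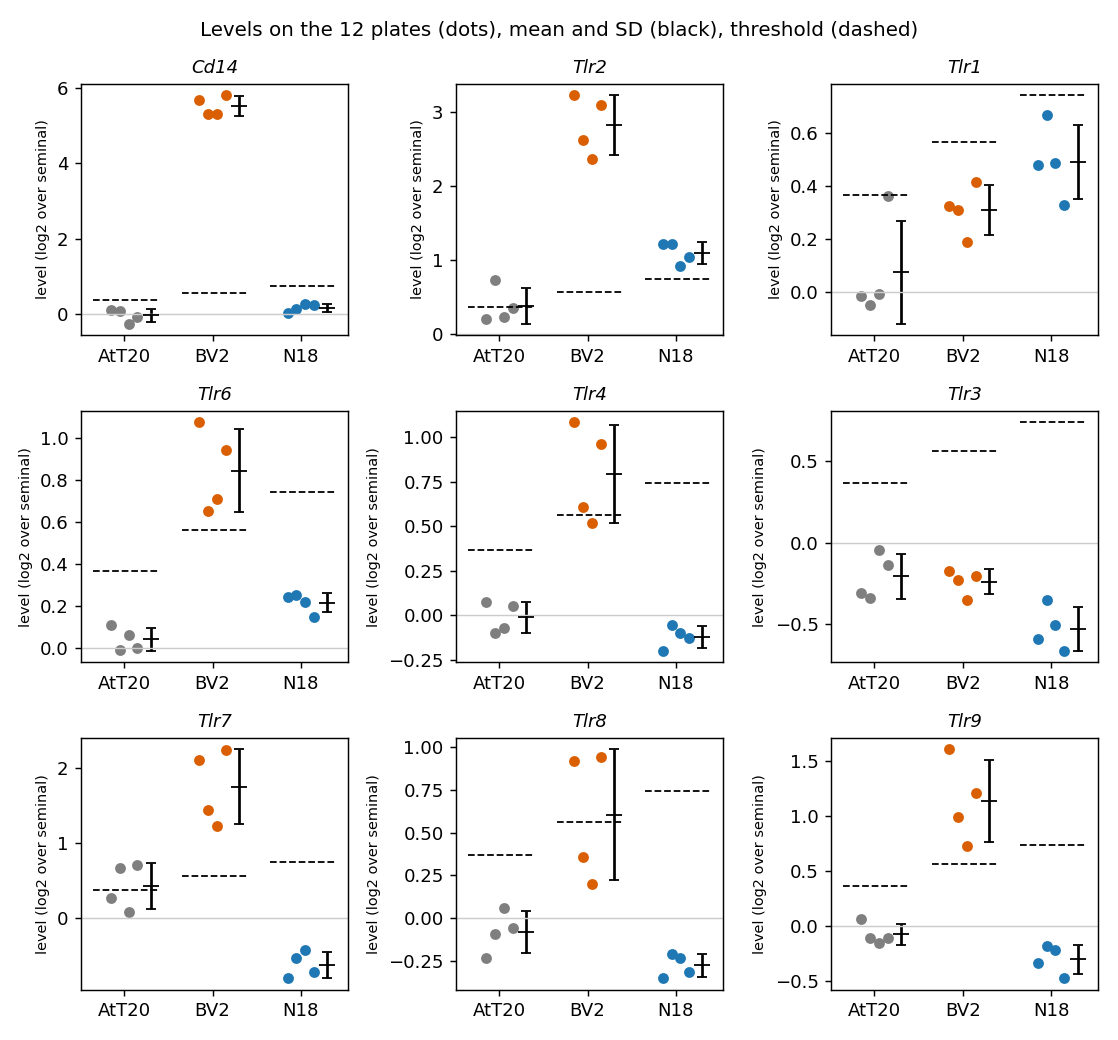
Level of each of the 9 measured members on the 12 plates (y axis, log2 over the mean of the seminal proteins on the same plate; each panel has its own scale). Dots are plates, the black mark is the mean with its SD over 4 plates, and the dashed line is the threshold of that line, averaged over its plates. Cd14, Tlr2, Tlr6, Tlr7 and Tlr9 are above it on all 4 BV2 plates, and Tlr1 and Tlr3 are below it in all 3 lines.

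Cd14, the lipopolysaccharide co-receptor, had BV2 levels of 5.69, 5.30, 5.31 and 5.82 on plates 1 to 4 (mean 5.53 ± 0.26, SD, n = 4). On the N18 plates its levels were 0.016, 0.13, 0.26 and 0.25, and on the plates labelled AtT20 0.094, 0.082, -0.27 and -0.071. All 8 plates outside BV2 were thus near the seminal proteins and below the threshold, and no plate of BV2 came near them. Tlr4, the receptor that Cd14 serves, had levels of 1.08, 0.61, 0.52 and 0.96 in BV2 (0.79 ± 0.27). It lay between -0.20 and -0.057 in N18 and between -0.098 and 0.077 on the plates labelled AtT20. The call of Tlr4 in BV2 held on 3 of the 4 plates taken alone and under 4 of 7 alternative settings, and that of Cd14 held under all 7.

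Tlr2, which binds bacterial lipopeptides, was the only member called in every line. Its levels were 3.22, 2.62, 2.36 and 3.10 in BV2 (2.83 ± 0.40), and 1.21, 1.22, 0.91 and 1.04 in N18 (1.09 ± 0.15). On the plates labelled AtT20 they were 0.20, 0.73, 0.23 and 0.35 (0.38 ± 0.25). The 3 lines did not overlap on this scale. The BV2 call of Tlr2 held under all 7 alternatives and the N18 call under 5, while the call on the plates labelled AtT20 was marginal (0.377 against a threshold of 0.366), was lost without plate 2 and held under 1. Its partners differed from each other. Tlr6 had levels of 1.08, 0.65, 0.71 and 0.94 in BV2 (0.85 ± 0.20), and was below the threshold elsewhere, with at most 0.25 in N18 and 0.11 for AtT20. Tlr1 was not called in any line. Its mean level was 0.49 ± 0.14 in N18, 0.31 ± 0.093 in BV2 and 0.073 ± 0.19 on the plates labelled AtT20.

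Among the endosomal receptors, Tlr7, a sensor of single-stranded RNA, was above the threshold on all 4 BV2 plates, with levels of 2.11, 1.43, 1.23 and 2.23 (1.75 ± 0.49). In N18 its levels were below those of the seminal proteins, at -0.80, -0.54, -0.43 and -0.72. On the plates labelled AtT20 they were 0.27, 0.67, 0.079 and 0.70, a mean of 0.43 ± 0.31 that passed under only 1 of 7 alternatives. Tlr9, the sensor of unmethylated CpG DNA, had levels of 1.61, 1.00, 0.73 and 1.21 in BV2 (1.14 ± 0.37), against -0.47 to -0.18 in N18 and -0.15 to 0.063 on the plates labelled AtT20. Tlr8, the neighbor of Tlr7 on the X chromosome, was split over the BV2 plates, with 0.92 and 0.94 on plates 1 and 4 and 0.36 and 0.20 on plates 2 and 3. Its mean of 0.60 ± 0.38 was close to the threshold of 0.56, and the call held under 2 of 7 alternatives. Tlr3, which recognizes RNA with paired strands, was the only member whose mean was below that of the seminal proteins in every line, with -0.24 ± 0.079 for BV2, -0.53 ± 0.14 for N18 and -0.21 ± 0.14 for AtT20.

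The BV2 plates fell in a similar order for these genes. For each of the 7 members called in BV2, the levels on plates 1 and 4 were both above those on plates 2 and 3. This order was not particular to the members. Other genes of the pathway such as Unc93b1 and Myd88 had it too, and others such as Tlr12 and Sarm1 did not. Its share over all genes and targets was not counted. The interquartile range over all probes was 1.73 and 1.65 on plates 1 and 4 and 1.28 and 1.55 on plates 2 and 3. After quantile normalization, which gives every array the same distribution, plates 1 and 4 were both above plate 2 for 4 of the 7, and plate 3 was the lowest for 6 of the 7. The part of array spread in this was not tested.

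The 3 probes of a member did not always give the same picture. In BV2, 17 of the 27 member probes were above the threshold, against 47.8% of all 72000 probes. In N18 it was 4 of 27, against 50.7% of all, and on the plates labelled AtT20 2 of 27, against 26.7%. The Cd14 probes had mean values of 5.77, 5.66 and 5.05 in BV2, and those of Tlr7 2.16, 1.49 and 1.45, all above the threshold. For Tlr2 the values were 3.82, 1.85 and 1.79 in BV2 and 0.99, 1.69 and 0.18 for the same probes in N18, so that 1 probe reached nearly the BV2 value in N18. For Cd14 as well, 1 probe of 3 was above the N18 threshold, at 0.91 ± 0.13, while the other two were below 0 on all 4 N18 plates. The Tlr7 call on the plates labelled AtT20 rested on 1 probe at 1.16 ± 0.53, and the other two were below 0 on every one of these plates. Tlr8 had 1 probe above the threshold in BV2 (1.27 ± 0.51), Tlr4, Tlr6 and Tlr9 had 2 each, and Tlr3 had 0. Tlr1, although not called, had 1 probe above the threshold in both BV2 (0.95 ± 0.097) and N18 (1.10 ± 0.12).

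**Figure D2:**
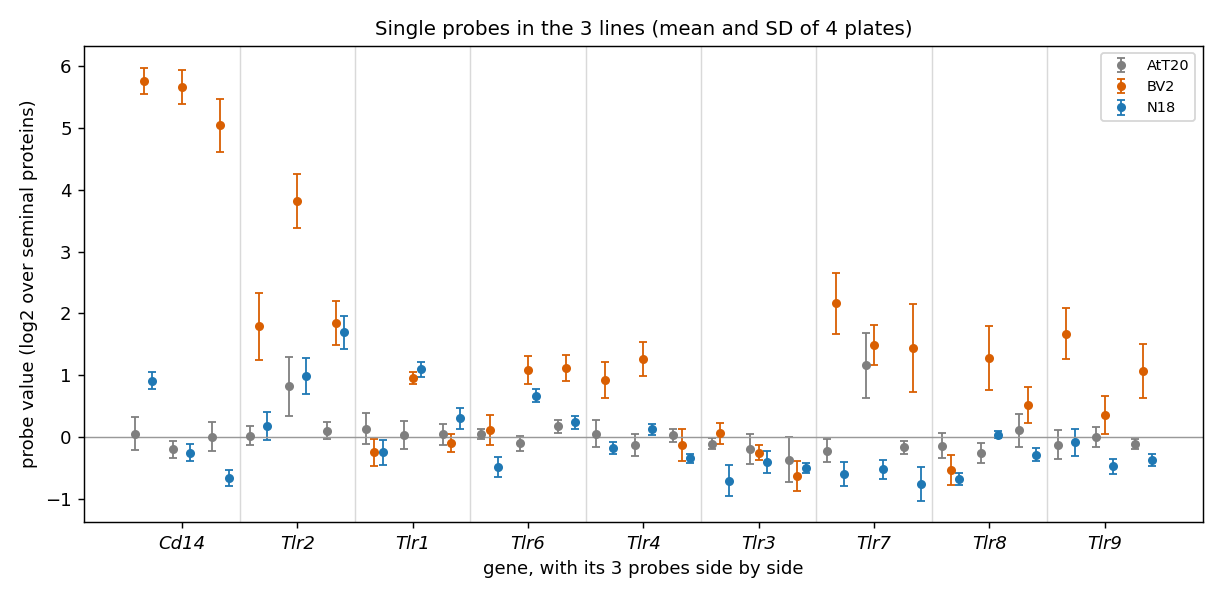
Values of the 27 single probes (y axis, log2 over the mean of the seminal proteins), 3 per member side by side on the x axis, with the mean and SD of 4 plates for each line in its own color. Probes differ in how strongly they bind, so heights are read within a probe, across lines; the 3 Cd14 probes are at 5.05 to 5.77 in BV2, whereas 1 Tlr2 probe has similar values in BV2 (1.85) and N18 (1.69).

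Next the lines were compared gene by gene after quantile normalization of the 12 arrays, in a fit across all 25128 genes and targets with no filter on low values. Between BV2 and N18, Cd14, Tlr2, Tlr4, Tlr6, Tlr7, Tlr8 and Tlr9 were higher in BV2, and no member was lower. That is 7 of 9, against 21.9% of all genes and targets higher in BV2 and 19% lower (adjusted p under 0.05). The median difference of the 9 members was 0.84 on the log2 scale, and that of all genes and targets was 0.06. For all 7 the BV2 plates lay above the N18 plates without overlap, but so they did for Tlr3, which did not pass. How many of all genes and targets were without overlap was not counted. All 7 members that passed kept their direction and passed under each of the 8 alternative settings.

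Cd14 differed most, with a log2 difference of 5.42 (SE 0.16, adjusted p = 1.29e-13). Because Cd14 was below the threshold in N18, the fold was bounded with that threshold in place of the N18 value, and over 3 scales it was at least 27-fold higher in BV2. Tlr7 was higher by 2.07 (SE 0.15, adjusted p = 9.69e-09), at least 2.0-fold by the same bound. Tlr2, which was above the threshold in both lines, was higher by 1.98 (SE 0.13, adjusted p = 2.61e-09), a ratio of 3.95. Tlr9 was higher by 1.27 (SE 0.13, adjusted p = 4.05e-07), at least 1.3-fold. The bound for Tlr4, Tlr6 and Tlr8 was close to 1 or below it, and their log2 differences were 0.84 (SE 0.10), 0.69 (SE 0.096) and 0.78 (SE 0.19, adjusted p = 0.00339). With a background correction before normalization these differences grew to 6.69 for Cd14, 3.87 for Tlr7, 2.57 for Tlr2, 2.34 for Tlr9, 1.55 for Tlr4, 1.58 for Tlr8 and 1.17 for Tlr6, so the sizes for the dimmer members depend on how background is treated.

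Tlr1 and Tlr3 did not pass between BV2 and N18. The difference of Tlr1 was 0.031, with a 95% interval from -0.29 to 0.35, and it was -0.18 on the scale of the seminal proteins and -0.15 with the values as deposited. That of Tlr3 was 0.24 (interval -0.035 to 0.51, adjusted p = 0.157), and Tlr3 passed on 2 other settings, on the seminal-relative scale (adjusted p = 0.00429) and in a fit on the 8 BV2 and N18 arrays alone (adjusted p = 0.000440), although it was below the threshold in both lines. Over single probes, 19 of 27 were higher in BV2 than in N18 and none was lower. Of all 72000 probes, 9475 were higher (13.2%) and 10433 lower. On the seminal scale it was 19 higher and 1 lower, the latter a Tlr1 probe (-0.40, adjusted p = 0.00753), and the Tlr2 probe that was high in N18 did not pass (0.16, adjusted p = 0.537). On that scale 8258 of all probes were higher and 24785 lower. After quantile normalization all 3 probes passed for Cd14, Tlr2, Tlr6, Tlr7 and Tlr9, 2 for Tlr4, 1 each for Tlr8 and Tlr3, and 0 for Tlr1. The differences of the Tlr2 probes ranged from 0.57 to 3.03, whereas those of the Cd14 probes ranged from 5.07 to 5.79.

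**Figure D3:**
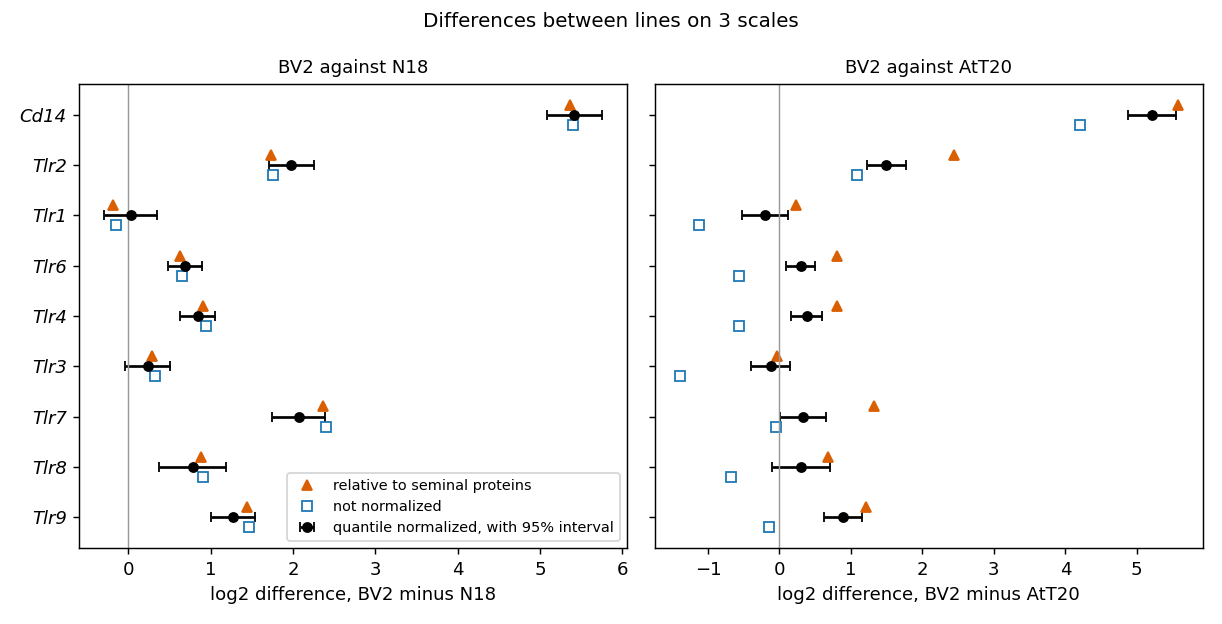
Log2 difference of each measured member between BV2 and N18 (left) and between BV2 and the plates labelled AtT20 (right). Black dots with 95% intervals are the quantile normalized fit, triangles the levels relative to the seminal proteins and open squares the values without normalization; on the left the 3 scales lie close together, and on the right they separate, so that Tlr4 is at 0.38, 0.80 and -0.56.

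Against the plates labelled AtT20, only Cd14 and Tlr2 were higher in BV2 on every scale used. After quantile normalization 5 of 9 members were higher in BV2 and 0 lower, where 26.6% of all genes and targets were higher and 47% lower. Relative to the seminal proteins it was 8 higher and 0 lower, with 12668 of all genes and targets higher and 4413 lower, and without normalization 2 higher and 5 lower, with 2940 and 18762. The median over all genes and targets was -0.23, 0.28 and -1.08 on these scales, and the members' median was 0.33, 0.80 and -0.56, so the members' median was above that of all genes on each. Cd14 was higher by 5.22 (SE 0.16, adjusted p = 1.55e-13), at least 13-fold, and by 5.57 and 4.21 on the other 2 scales. Tlr2 was higher by 1.495 (SE 0.13, adjusted p = 2.95e-08), and by 2.45 and 1.09. Tlr9 was higher by 0.89 (SE 0.13), Tlr4 by 0.38 (SE 0.10, adjusted p = 0.00290) and Tlr6 by 0.30 (SE 0.096, adjusted p = 0.0106), but without normalization their differences were -0.15, -0.56 and -0.56. Tlr7, with the probe noted above, had a difference of 0.33 (SE 0.15, adjusted p = 0.0625).

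Between N18 and the plates labelled AtT20, 4 members (Cd14, Tlr1, Tlr2 and Tlr6) changed direction with the scale, and only Tlr2 was above the threshold in both. After quantile normalization 0 of 9 members were higher in N18 and 7 lower, where 27.8% of all genes and targets were higher and 48.6% lower. Relative to the seminal proteins 2 were higher (Tlr1 and Tlr2) and 2 lower (Tlr3 and Tlr7), where 15255 of all 25128 genes and targets were higher and 4094 lower. Without normalization all 9 were lower, where 5012 of all were higher and 15846 lower. Tlr2, called in both, was lower in N18 by -0.49 (adjusted p = 0.00287) after quantile normalization and higher by 0.72 (adjusted p = 0.00243) relative to the seminal proteins. Tlr7 was lower in N18 on all 3 scales, but it was below the threshold there, so the size is not measured and no bound above 1 was reached. The probe that gave the Tlr7 call on the plates labelled AtT20 had a difference of -2.80, and the other two had -0.28 and -0.50. Tlr3 was lower in N18 on all 3 scales and below the threshold in both lines. The all-gene median was -0.25, 0.54 and -0.85 on the same scales. The comparisons share plates: the 3 pairs are built from 3 lines and are not independent of each other.

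The genes whose pattern over the 12 arrays was most like that of a member were picked by the smallest root mean square difference between centred log2 profiles. For Cd14 these were Lcp1, an actin-bundling protein of leukocytes (0.23), Ptgs2, the inducible cyclooxygenase (0.25), and Lyz2, a lysozyme of myeloid cells (0.34). For Tlr2 they were Arhgap45 (0.13), Fcgr1, a high-affinity receptor for immunoglobulin G (0.13), and Il17ra, a receptor chain for interleukin 17 (0.14). Tlr7 was followed most closely by Themis2 (0.21), Rilpl2 (0.22) and the death receptor Fas (0.23), genes that like Tlr7 were high on the plates labelled AtT20 as well as in BV2 after quantile normalization. Themis2, for example, had a mean log2 value of 12.95 in BV2, 12.69 on the plates labelled AtT20 and 10.80 in N18. The Tlr7 value on the plates labelled AtT20 rested mainly on 1 probe, as given above, and so did this likeness. Tlr9 was followed by Abcc4, Tesk1 and Ifrd1, Tlr4 by Dock1, Pag1 and Cutc, Tlr6 by Cdc42ep3, Ccdc9 and Luc7l, and Tlr8 by Rab8a, Borcs7 and Phf11a, with differences of 0.074 to 0.14. Pearson r with the member was 0.95 to 1.00 over the 12 arrays, which fall into 3 lines and share each line's background.

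The promoters were read beside these patterns, since 7 members moved together between BV2 and N18 and 2 did not. RefSeq windows of 300 bases, 250 before the start of transcription and 50 from it on, were read for 7 of the 10 members (9 windows, build GRCm38.p6). Cd14 was not looked up. They were searched on both strands for GAGGAA, the core of sites for PU.1, for GGGACTT, the first letters of a classic NF-kappaB site, and for TATAAA, the TATA box. The gene for PU.1 itself, Spi1, had a level of 4.06 ± 0.29 in BV2 and was below the threshold in both other lines. Among all 32851 windows, 28.3% hold GAGGAA, 5.44% GGGACTT and 13.6% TATAAA. The windows of Tlr9 and Tlr2, which were higher in BV2 than in N18, and of Tlr1, which did not pass, are shown to compare them, from 5′ to 3′ on the strand of the gene, with GAGGAA or its reverse complement in capitals. The Tlr9 window is chr9:106222348-106222647 on the plus strand, that of Tlr2 chr3:83841559-83841858 on the minus strand, and the first of 2 Tlr1 windows chr5:64933509-64933808 on the minus strand.
Tlr9: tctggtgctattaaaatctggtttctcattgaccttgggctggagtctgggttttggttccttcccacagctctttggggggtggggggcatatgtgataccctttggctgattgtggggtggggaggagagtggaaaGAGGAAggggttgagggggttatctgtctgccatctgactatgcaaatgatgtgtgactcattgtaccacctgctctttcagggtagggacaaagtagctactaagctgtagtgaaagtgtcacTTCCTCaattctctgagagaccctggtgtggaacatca
Tlr2: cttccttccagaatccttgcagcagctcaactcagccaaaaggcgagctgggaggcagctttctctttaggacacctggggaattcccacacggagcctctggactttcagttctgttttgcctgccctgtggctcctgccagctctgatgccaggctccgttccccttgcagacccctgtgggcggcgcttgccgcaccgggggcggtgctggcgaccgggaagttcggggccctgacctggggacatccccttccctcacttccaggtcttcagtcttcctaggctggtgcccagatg
Tlr1: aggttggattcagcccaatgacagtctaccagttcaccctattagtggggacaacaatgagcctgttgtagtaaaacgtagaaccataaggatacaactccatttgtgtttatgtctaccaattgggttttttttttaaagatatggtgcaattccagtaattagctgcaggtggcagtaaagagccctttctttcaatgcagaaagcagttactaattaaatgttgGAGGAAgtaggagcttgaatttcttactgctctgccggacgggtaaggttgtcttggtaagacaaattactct

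In the Tlr9 window GAGGAA stands at -112 to -107, counted with the first transcribed base as 0, and again on the opposite strand at 12 to 17. The Tlr1 window holds it at -23 to -18, and the Tlr8 window has it on the opposite strand at -77 to -72. It was not found in the windows of Tlr2, Tlr3, Tlr5 and Tlr6, and GGGACTT was in none of the 9 windows. TATAAA was found in the second Tlr6 window, 3 times on the opposite strand, and in the Tlr8 window, where 2 matches on opposite strands overlap. Tlr4 and Tlr7 had no window in the table, and Cd14 was left out of the search. These matches describe the letters of the windows only.

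The other genes of the pathway were taken from lists by role, 78 measured genes in all. Of these 46 were higher in BV2 than in N18 and 12 lower, where 21.9% of all genes and targets were higher and 19% lower. Their median difference was 0.55 where that of all genes and targets was 0.06. On the scale of the seminal proteins it was 38 higher and 20 lower, where 3296 of all 25128 were higher and 9754 lower. With the values as deposited it was 34 and 14, where 1905 and 7714 of all were. The same shares of all genes and targets are the background for the counts of each list below. The microglia markers moved in the same direction (9 of 11 higher, median 3.58), and the part of cell type in these counts cannot be told apart from the line. Among the remaining Toll-like receptors of the mouse, Tlr13, a sensor of bacterial ribosomal RNA, was higher in BV2 by 1.55 (level 1.61 ± 0.37, at least 1.8-fold over N18). Tlr12 was lower in BV2 by -0.53 and was called on the plates labelled AtT20 (1.07 ± 0.38) and in N18 (1.37 ± 0.12) but not in BV2. Tlr11 had a difference of 0.30 that did not pass (adjusted p = 0.133).

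Of the 5 accessory proteins at the cell surface 3 were higher in BV2 and 1 in N18 (3 and 1 on the seminal scale, 2 and 1 with the values as deposited). Cd180, a receptor-like protein without a signaling domain, was higher in BV2 by 1.47 (at least 2.3-fold), the scavenger receptor Cd36 by 1.11, and Ly96, the MD-2 subunit that binds lipopolysaccharide with Tlr4, by 0.39 (adjusted p = 0.00158; 0.26 on the seminal scale and 0.29, not past the test, with the values as deposited), with a level of 0.63 ± 0.21 just above the BV2 threshold. Lbp, the serum protein that brings lipopolysaccharide to Cd14, went the other way, with a level of 2.00 ± 0.25 in N18 and -0.045 ± 0.091 in BV2 (difference -1.35, adjusted p = 4.30e-08). Ly86, the partner of Cd180, was below the threshold in all 3 lines, with a difference of 0.11 (adjusted p = 0.283). Thus Cd14, Tlr4 and Ly96 were each above the BV2 threshold and below the N18 threshold, but only for Cd14 was the gap wide. The BV2 level of Ly96 was below the N18 threshold of 0.74, and its level in N18 was 0.37 ± 0.10. The bound on its fold over N18 was 0.92, and that of Tlr4 was 1.04.

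The endosomal receptors depend on a chaperone and on proteases that cut them. Unc93b1, which carries them to endosomes, was called in every line and was higher in BV2 than in N18 by 3.31 (SE 0.15, adjusted p = 3.53e-11). Of the proteases, Ctss was higher by 3.66 (at least 7.0-fold), Ctsl by 1.92 and Ctsb by 1.55, while Lgmn differed by 0.031 (adjusted p = 0.818). The chaperone genes went another way, with Cnpy4 lower in BV2 by -1.27, Hsp90b1 lower by -0.43 and Cnpy3 at 0.18 (adjusted p = 0.418). Slc15a4, an endosomal transporter, and Ap3b1, a subunit of the AP-3 sorting complex, were lower by -0.55 and -0.73. Over the 10 genes of receptor trafficking and processing 4 were higher and 4 lower, and all 10 were called in BV2 and 9 in N18. Of all genes and targets 53.3% were called in BV2 and 55.4% in N18.

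Of the 6 adaptors 4 were higher in BV2 and 1 lower (3 and 2 on the seminal scale, 3 and 1 with the values as deposited). Myd88, which serves every receptor of the group but Tlr3, was called in BV2 (4.61 ± 0.34) and N18 (2.48 ± 0.25) but not on the plates labelled AtT20, and was higher in BV2 than in N18 by 2.90 (SE 0.11, adjusted p = 2.72e-12). Pik3ap1, which links the receptors to phosphoinositide 3-kinase, was called in BV2 alone and was higher by 3.93 (at least 8.0-fold). Tirap, the sorting adaptor for Tlr2 and Tlr4, was higher by 1.14, and Ticam1, the adaptor of Tlr3 and of endosomal Tlr4, by 0.70. Ticam1 did not pass under 2 of 8 alternatives. Sarm1, better known from axon degeneration, was lower by -0.90 and called in N18 alone (1.99 ± 0.17). Ticam2, which bridges Tlr4 and Ticam1, was below the threshold everywhere, with a difference of -0.18 (adjusted p = 0.162).

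Among kinases and ubiquitin ligases 10 of 20 were higher in BV2 and 4 lower, led by Ikbke (1.74, at least 2.8-fold), Irak1 (1.47) and Irak2 (1.36), but relative to the seminal proteins 5 were higher and 7 lower, and without normalization 4 and 5. Of 9 negative regulators 4 were higher and 1 lower. Irak3, an inhibitory member of the Irak family, was higher by 2.72 and Tnip1, a partner of the ubiquitin-editing protein A20, by 2.03. Of 7 transcription factors 6 were higher and 0 lower (4 and 0 on both other scales), with Irf7 at 3.70 (at least 8.7-fold), Nfkb1 at 2.07, Irf5 at 1.57 (at least 2.5-fold) and Rel at 1.31.

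Genes that the receptors are known to induce were higher in the untreated BV2 cells. All 12 measured passed in that direction against N18 (12 on the seminal scale, 11 with the values as deposited), with a median difference of 2.73. In BV2 11 of the 12 were called, against 53.3% of all genes and targets, and in N18 3, against 55.4%. Ptgs2 had a level of 5.12 ± 0.26 in BV2 and was higher by 5.39 (SE 0.099, adjusted p = 4.33e-15), at least 20-fold over N18. The chemokine genes Ccl3, Cxcl2 and Cxcl10 were higher by 4.49, 4.41 (at least 13-fold) and 3.98 (at least 11-fold), and Ccl4 and Ccl5 by 2.86 (at least 5.0-fold) and 2.78 (at least 5.2-fold). Nos2, the inducible nitric oxide synthase, was higher by 2.69, Il1b by 2.28 (at least 3.0-fold), Il6 by 1.73 (at least 2.4-fold), Tnf by 1.60 (at least 2.2-fold) and Nfkbia, the NF-kappaB inhibitor that NF-kappaB itself induces, by 1.54. Ifnb1, the interferon beta gene, was not called in any line, and its difference of 0.28 (adjusted p = 0.00973) lay below the thresholds.

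**Figure D4:**
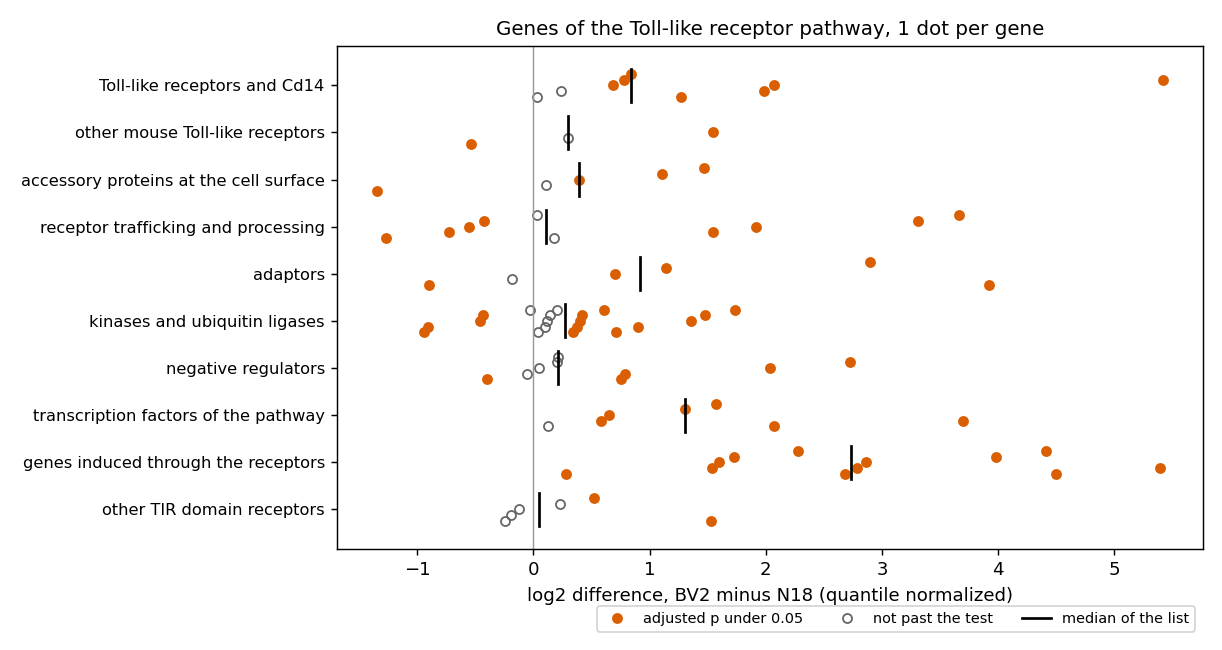
Log2 difference between BV2 and N18 after quantile normalization (x axis) for the measured genes of the pathway, grouped by role (y axis; vertical offsets within a row only separate the dots). Filled dots passed at an adjusted p under 0.05, open dots did not, and the black bar is the median of a list; the members have their median at 0.84, the genes induced through the receptors at 2.73 with every dot above 0, and trafficking and processing spreads to both sides with its median at 0.10.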

How the data were processed

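Per the labels and the study's methods, RNA from 4 plates per line was labelled with Cy3 and hybridised to NimbleGen arrays of mouse transcripts, 1 array per plate. The deposited values are log2 intensities of 72000 probes in 25631 targets, which the authors gave without background subtraction or normalization between arrays that the values or methods show. HEK293 cells and qPCR were not used here.

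Row identifiers were matched to symbols through RefSeq transcripts (17780 targets, 69.4%), and targets of a gene were averaged. The detection rule follows the methods. Differences between lines were tested on quantile normalized log2 levels by lmFit and eBayes with a trend (limma 3.58.1, R 4.3.3), with Benjamini-Hochberg adjustment over 25128 genes and targets. Tables and figures used Python 3.11.15, numpy 2.4.6, pandas 2.3.3 and matplotlib 3.10.9. The fit was tested on simulated data. Alternatives for detection were the mean of log2 probes, the median, quantile normalization first and 1064 olfactory receptor genes as controls. The others were 3 SD, all plates above their threshold and the seminal proteins without the highest, the only one that kept the calls on the plates labelled AtT20. For the comparisons the alternatives were other scalings, a normexp correction (offset 50), other probe summaries, a filter on low values, pairs alone, a replicate block and leaving out each plate. A bound on a fold is the smallest over quantile normalized, seminal-relative and unnormalized values, rounded down.

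The members and lists were chosen with earlier results of these data known. Named are all members, the matched adaptors and accessory proteins, list genes with an adjusted p under 0.05 and a log2 difference of at least 1 between BV2 and N18, and the 3 genes most like each called member. Other genes named were chosen after their values were seen. The 4 arrays per line limit the precision.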

Additional observations from a re-analysis of the deposited data

Results flagged for a closer look

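The level of Tlr1 on plate 4 labelled AtT20 was 0.36, and on the other plates of that label it lay between -0.049 and -0.0068. The gap to the nearest plate was 0.897 of the whole range of the 4 plates, above the critical value of Dixon's test. It was 1 of 27 groups of 4 plates tested, and chance marks about 1 group in 20 in this way. The mean of Tlr1 stayed below the threshold of 0.37 on these plates with it.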

How the results depend on the processing

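The 7 differences between BV2 and N18 kept their direction and passed in all alternatives and with each plate left out. Calls of expression moved more. On the plates labelled AtT20 the 2 called members fell to 0 with averaged log2 probes, with the median probe, with quantile normalization first, with olfactory receptor genes as controls, 3 SD or all 4 plates above their threshold, and ranged from 0 to 2 with a plate left out (0 without plate 2, 1 without plate 4). Under the settings with 0 members called there, 5580 to 8152 of all 25128 genes and targets were called. With a plate of that label left out it was 8100 to 9297. In BV2 the 7 fell to 3 with olfactory receptor genes, to 4 with 3 SD and to 3 with all 4 plates, and ranged from 6 to 7 with a plate left out. Of all genes and targets, 7864, 10671 and 11114 were called in BV2 under the first 3 of these, against 13386 in the main setting. The members' share was then near or below that of all. With a BV2 plate left out, 13063 to 14037 of all were called. In N18 the 1 fell to 0 with olfactory receptor genes and with 3 SD, where 9524 and 11368 of all were called. For BV2 against the plates labelled AtT20, 5 members higher became 2 without normalization and 8 relative to the seminal proteins, and 0 lower became 5 without normalization and 1 with the median. For N18 against them, 0 higher became 2 and 7 lower became 2 relative to the seminal proteins, lower became 4 with the median, and 1 probe higher became 4 relative to the seminal proteins. Of all 72000 probes, 21460 were higher in N18 in the main setting and 39858 relative to the seminal proteins. With the median, 8995 of all genes and targets were lower in BV2 and 9308 lower in N18 than on the plates labelled AtT20. Values that changed sign were the Tlr7 level on the plates labelled AtT20 (-0.13 with the median) and several differences. For Tlr1 between BV2 and N18 these were -0.15 (no normalization), -0.18 (seminal proteins), -0.0047 (log2 probes), -0.21 (median) and -0.0055 (without N18 plate 4), and between BV2 and AtT20 0.24 (seminal proteins) and 0.0052 (without AtT20 plate 4). With a plate left out, Tlr1 ranged from -0.0055 to 0.053 and from -0.30 to 0.0052 in these pairs. Between BV2 and AtT20, Tlr3 was 0.024 without AtT20 plate 3 (range -0.24 to 0.024 with a plate left out), and without normalization Tlr4 was -0.56, Tlr6 -0.56, Tlr7 -0.041, Tlr8 -0.68 and Tlr9 -0.15. Between N18 and AtT20 and relative to the seminal proteins, Tlr1 was 0.42, Tlr2 0.72, Tlr6 0.17 and Cd14 0.20. The cause was not tested. Over all genes and targets, 5495 were higher and 4775 lower in BV2 than in N18, and the split was 3296 to 9754 relative to the seminal proteins and 1905 to 7714 without normalization. For N18 against AtT20, 6981 higher and 12211 lower became 15255 and 4094, and 5012 and 15846. Plates with the same number did not deviate together (correlations -0.11 to 0.32, 3 of 12 over 0.1). With the plate number as a replicate block the members higher and lower stayed at 7 and 0 between BV2 and N18, 5 and 0 between BV2 and AtT20, and 0 and 7 between N18 and AtT20, and over all genes 5329 and 4779 passed between BV2 and N18. Calls of members near the threshold depended on the setting. Tlr8 in BV2, for example, was at 0.60 against a threshold of 0.56, and its call held under 2 of 7 alternatives. The reason was not tested.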

Other observations

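Receptors outside the group that share the intracellular TIR domain were mostly near or below the threshold. Of 6 measured, 2 were higher in BV2 than in N18 and 0 lower, where 21.9% of all genes and targets were higher and 19% lower. Relative to the seminal proteins 1 was higher and 3 were lower, where 3296 of all 25128 were higher and 9754 lower. Il18rap, a chain of the interleukin 18 receptor, was called in BV2 alone (1.74 ± 0.21, SD, n = 4) and was higher than in N18 by 1.53 (adjusted p = 2.63e-09, at least 1.9-fold), whereas its partner chain Il18r1 was below the threshold in all 3 lines (-0.049 ± 0.076 in BV2). Il1r1, the interleukin 1 receptor, was higher in BV2 by 0.52 (adjusted p = 0.0191) and passed under 5 of 8 alternatives. Il1rap, the shared partner chain of that receptor, was called in N18 (1.09 ± 0.20) and not in BV2 (0.46 ± 0.16), and its difference of -0.25 did not pass (adjusted p = 0.0781).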
